A study of Mus musculus with 4 samples.

Results

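The genes described here encode the subunits, activators and assembly chaperones of the proteasome. They were chosen by symbol, as every gene on the array whose symbol starts with Psma, Psmb, Psmc, Psmd, Psme or Psmg, leaving out the immunoproteasome genes Psmb8, Psmb9 and Psmb10. This gave 46 genes with 58 probes. The array gave a value for 36983 genes. Of these, 20051 passed the filter on dim probes and were tested, 44 of the proteasome genes among them. The scanner files hold accessions and no gene symbols, so symbols came from RefSeq by accession. The symbol rule also took Psmc3ip, a meiotic recombination factor, and Psme3ip1, a partner protein of an activator. Neither is a proteasome subunit, and both are kept as a group of their own.

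The study profiled mouse cell lines on 4 two-colour arrays. The lines arose as transformed clones when fetal liver cells had received a transgene for p185 BCR-ABL1, an oncogenic fusion kinase. R/R lines are homozygous for the knock-in alleles Cdk4 R24C and Cdk6 R31C, and control lines are wild type (WT) for both kinases. The mixed strain background (C57BL/6J x CD-1), the BCR-ABL1 transgene and asynchronous growth in RPMI medium were shared by all lines. R/R clones 1, 2 and 3 were labelled with Cy5, 1 clone per array, and a pool of WT RNA filled the Cy3 channel. On the remaining array the dyes were swapped, with an R/R pool in Cy3. The design text speaks of 3 control replicates, but controls appear here only as a pool, and the labels do not say which lines either pool held. The spread among WT lines was therefore not measured.

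The comparison asks how transcript levels in R/R lines differ from those in WT lines. Every value below is a log2 ratio of R/R over the WT pool, and the pool array, where the dyes were swapped, was turned to the same direction. The fitted value of a gene is midway between its clone mean and its pool value, and its SE rests on the spread among the clones, moderated by limma. Genes are called highest or lowest by the fitted value of their brightest probe. The order can differ on the clones alone, by the mean of probes or with chromosome medians subtracted. Between 42.8% and 53.4% of spots per channel lay well above background, and no spot was saturated. The number of arrays limits the precision. All 10 of the B-lineage markers checked, such as Cd79a, Vpreb1 and Pax5, were well above background in both channels of every array. Of 5 hepatocyte markers, 4 (Alb, Afp, Ttr and Apoa1) were not well above background in any channel, nor were 4 of 5 erythroid markers. The remaining erythroid marker, Hbb-bh1, was well above background in both channels of every array. It was lower in R/R, with a fitted value of -1.81 and an SE of 0.11 (limma adjusted p = 0.011). Markers of other blood lineages were present in part: 3 of 5 myeloid markers, Itgam among them, and 2 of 4 T and NK markers were well above background in both channels of every array, while Mpo was not in any.

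The proteasome degrades proteins that carry ubiquitin chains, among them many cell cycle regulators. Its 20S core is a barrel of alpha rings around beta rings, and some of the beta subunits hold the proteolytic sites. The 19S regulatory particle caps the barrel: its base holds ATPases that unfold substrates, and its lid holds a deubiquitinase. Other caps, here called activators, open the barrel without ATP hydrolysis by the base, and dedicated chaperones assist assembly of core and base. Transcription of subunit genes is known to rise together through the factor encoded by Nfe2l1, which binds antioxidant response elements, when proteasome activity falls short.

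Sequence just upstream of the start site is shown for 3 genes whose values come below, to show the motifs counted next: the core genes Psmb5 and Psmb3, each above 0 on all 4 arrays, and the lid gene Psmd12. Each sequence is the 250 bases before the RefSeq start in GRCm38.p6. Capitals mark an antioxidant response element core (TGACNNNGC) in Psmb5, CCAAT in Psmb3, and an ETS core (CCGGAAG, here on the other strand) in Psmd12. The Psmb5 window is chr14:54617996-54618245 on the minus strand. The windows of Psmb3, chr11:97703184-97703433, and Psmd12, chr11:107479278-107479527, lie on the plus strand.
Psmb5: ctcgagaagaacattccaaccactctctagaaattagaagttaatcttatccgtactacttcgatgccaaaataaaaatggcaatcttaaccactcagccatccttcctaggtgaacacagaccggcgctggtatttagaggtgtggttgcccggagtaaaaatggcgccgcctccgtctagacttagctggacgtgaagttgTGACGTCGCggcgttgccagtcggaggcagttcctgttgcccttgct
Psmb3: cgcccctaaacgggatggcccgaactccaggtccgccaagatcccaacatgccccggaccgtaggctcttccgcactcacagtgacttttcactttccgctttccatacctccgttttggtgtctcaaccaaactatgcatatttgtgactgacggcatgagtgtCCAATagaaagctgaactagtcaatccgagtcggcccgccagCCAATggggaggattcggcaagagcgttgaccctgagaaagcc
Psmd12: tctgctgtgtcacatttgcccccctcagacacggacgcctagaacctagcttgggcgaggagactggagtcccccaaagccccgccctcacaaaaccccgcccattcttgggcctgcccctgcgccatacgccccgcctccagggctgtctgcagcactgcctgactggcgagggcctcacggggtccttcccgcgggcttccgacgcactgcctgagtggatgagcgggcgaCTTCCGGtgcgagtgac

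Such windows were found for 35 of the 42 tested genes other than the name matches, and 9 motifs were searched in them on both strands. For 6 of the 35 the window belongs to a start inside the gene's outermost RefSeq boundary, as for Psmb6. The antioxidant response element core was in 5 of the 35 (14.3%; 3112 of all 27025 genes with a window): Psmb5, Psmb6, Psmc6, Psmd12 and Psmd9. CCAAT was in 12 (34.3%; 37.5% of all genes), 6 of them among 11 core genes and 4 among 14 genes of the 19S base and lid. The ETS core was in 12 (34.3%; 7.83% of all genes), with 1 of 11 core genes and 8 of 14 base and lid genes. The GC box (GGGCGG) was in 20 (57.1%; 35.4% of all genes) and the NRF1 palindrome in 6 (17.1%; 5.64%), where NRF1 is the respiratory factor and not the product of Nfe2l1. An E2F core (TTTNNCGC) was in 4 (11.4%; 4.94%) and an E-box (CACGTG) in 3 (8.57%; 6.86%). The cAMP response element (TGACGTCA) and the YY1 core (AAGATGGC) were in none of these windows, against 1.77% and 1.83% of all genes. These matches describe letters and were not tested for binding.

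No proteasome gene passed the threshold over all genes (0 of 44 by limma, at an adjusted p under 0.05 after Benjamini-Hochberg; 0.524% of the 20051 genes passed, 0.15% as higher and 0.374% as lower). At an unadjusted p under 0.05, 11 of 44 were higher and 0 were lower (7.26% and 8.09% of all genes). The fitted value was above 0 in 39 of 44 genes, against 46.4% of all genes. The median fitted value was 0.19, against -0.02 over all genes tested. Values above 0 on all 4 arrays were seen in 22 genes (14.6% of all genes), and 0 genes were below 0 on all 4 arrays (16.2% of all genes). The arrays share the WT pool, so the 4 signs are not independent. The differences were small, with fitted values from -0.14 to 0.58 and a median SE of 0.09.

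The pattern was present on each array. The median over the 44 genes was 0.12 in clone 1, 0.17 in clone 2, 0.14 in clone 3 and 0.27 on the pool array, while the medians of all genes lay between -0.02 and 0.01. Genes above 0 numbered 37, 35 and 35 in clones 1, 2 and 3 and 37 on the pool array. The clones and the pool therefore had nearly the same number of genes above 0, but the pool array lay further from 0. On the clones alone the median was 0.15, and 0 genes passed. In these RNA pools of many cells, more transcript per cell and a larger share of cells with much transcript cannot be told apart.

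**Figure D1:**
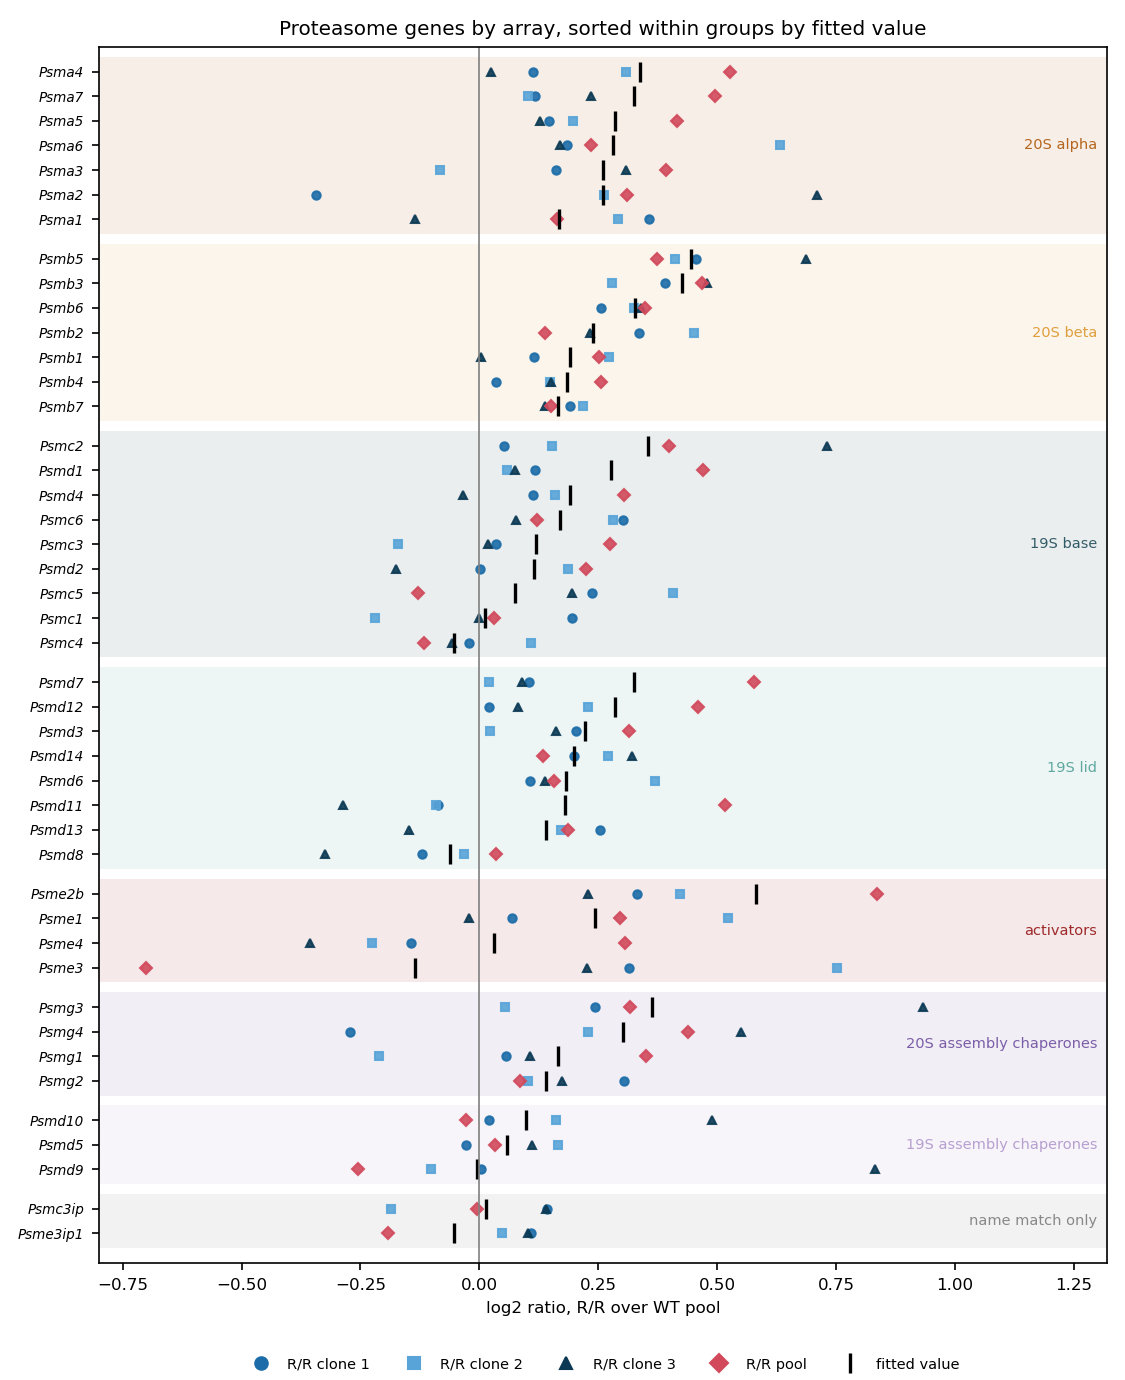
Log2 ratio of R/R over the WT pool for each of the 44 tested proteasome genes, by group; points are the 3 R/R clones and the R/R pool, and the black bar is the fitted value. Most points lie right of 0, all points of the 20S beta genes do, and Psme3, Psmd9 and Psma2 show the widest scatter.

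Brightness moved with this pattern. Proteasome probes are bright: 30 of the 44 genes had a mean log2 signal from 11 to 15. Over all 1901 genes with a symbol in that range, 63.0% of fitted values were above 0 and the median was 0.08, with 0.05, 0.02 and 0.01 in clones 1, 2 and 3 and 0.12 on the pool array. The 30 proteasome genes of the range had 28 values above 0 and a median of 0.23, with 0.12, 0.19, 0.12 and 0.31 on the same arrays. Of them, 17 were above 0 on all 4 arrays, against 25.1% of all genes of that brightness. The share of all genes above 0 was uneven within the range. From 11 to 12 it was 58.6% (median 0.05, against 0.17 in 7 proteasome genes). From 12 to 13 it was 67.7% (0.11, against 0.22 in 12), and from 13 to 14 it was 70.4% (0.15, against 0.26 in 8). At 14 and above it was 41.1% (-0.05, against 0.43 in 3). Among genes below 11, the 14 proteasome genes had 11 values above 0 and a median of 0.12, against -0.01 over 10231 genes. The part of brightness in the result was not tested.

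The core genes had a higher median than the genes of the 19S particle. The 14 tested core genes were all above 0 with a median of 0.27, and 7 of them had an unadjusted p under 0.05. The 17 genes of the 19S base and lid had a median of 0.18, with 15 above 0 and 3 at that p. The core median exceeded the 19S median on each array: 0.17 against 0.11 in clone 1, 0.28 against 0.15 in clone 2, 0.20 against 0.07 in clone 3, and 0.33 against 0.22 on the pool array. This difference between lists was not tested, and the lists were not matched for brightness. Within the 19S particle, the base had a median of 0.12 and the lid 0.19, an order that not every array showed. The base medians in clones 1, 2 and 3 were 0.11, 0.15 and 0.02, the lid medians 0.11, 0.10 and 0.09, and the pool array gave 0.22 for the base and 0.25 for the lid. Fitted on the clones alone, the base median was 0.08 and the lid median 0.10. The 6 ATPase genes Psmc1 to Psmc6 had a median of 0.10, and 2 of them were above 0 on all 4 arrays.

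**Figure D2:**
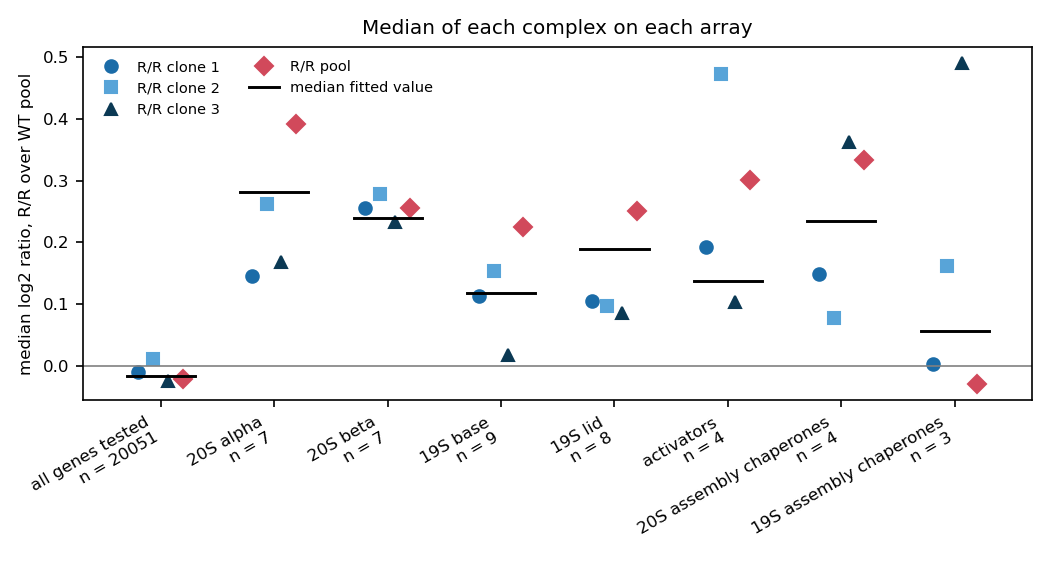
Median log2 ratio of R/R over the WT pool in each group of proteasome genes and over all genes tested, on each of the 4 arrays, with the median fitted value as a black line; n is the number of genes. The 20S beta medians lie close together, from 0.23 to 0.28, whereas the activators and assembly chaperones spread widely.

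The beta subunits of the core were the most even group. All 7 tested beta genes were above 0 on all 4 arrays, with a median of 0.24 and a range of 0.17 to 0.45. Their median SD among the clones was 0.10, close to 0.11 in the base and 0.11 in the lid, against 0.17 over all genes. Psmb5, the subunit with chymotrypsin-like activity, had 0.45 in clone 1, 0.41 in clone 2, 0.69 in clone 3 and 0.37 on the pool array. The normalised log2 signal of this brightest probe was 14.1 to 14.3 in the WT channels and 14.6 to 14.9 in the R/R channels. These readings did not overlap, but the WT channels all held the WT pool. The fitted value was 0.45 ± 0.10 (SE, 3 clones and 1 pool; limma adjusted p = 0.1497). A second, dimmer Psmb5 probe had 0.12, 0.09, 0.22 and 0.37 on these arrays and a fitted value of 0.26. Its WT readings, 11.943 to 12.145, and its R/R readings, 12.097 to 12.365, overlapped.

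Psmb3, a structural beta subunit, had 0.39, 0.28 and 0.48 in clones 1, 2 and 3 and 0.47 on the pool array. Its WT channels read 13.83 to 14.02 and its R/R channels 14.19 to 14.50, without overlap. How many of all genes lacked overlap was not counted. The fitted value was 0.43 ± 0.09 (limma adjusted p = 0.144). Psmb6, the subunit with caspase-like activity, was the most even of the higher ones, with 0.26, 0.33 and 0.34 in the clones and 0.35 in the pool (0.33 ± 0.09; limma adjusted p = 0.185). Psmb7, the subunit with trypsin-like activity, was the lowest beta gene, with 0.19, 0.22, 0.14 and 0.15 (0.17 ± 0.09; limma adjusted p = 0.423). The genes of all 3 proteolytic subunits were thus above the WT pool on every array. Psmb2, Psmb1 and Psmb4, which are not proteolytic, had fitted values of 0.24, 0.19 and 0.18. The thymus-type subunit gene Psmb11 was not well above background in any channel and was not tested.

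Leaving out the dye term counts the pool as another replicate. In that fit Psmb5 (limma adjusted p = 0.024), Psmb3 (adjusted p = 0.030) and Psmb6 (adjusted p = 0.050) passed. These were 3 of the 44 genes, all higher. Over all genes tested, 1140 of 20051 passed in that fit, 490 as higher and 650 as lower. Whether the shares differ was not tested. The immunoproteasome gene Psmb8, which is outside the 44, also passed (limma adjusted p = 0.014). Over the alternatives run, the limma adjusted p ranged from 0.024 to 0.499 for Psmb5, from 0.030 to 0.512 for Psmb3 and from 0.050 to 0.686 for Psmb6.

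The 7 tested alpha genes were also all above 0 in the fit, from 0.17 to 0.34 with a median of 0.28, but 4 of them kept that sign on all 4 arrays. On the clones alone the alpha median was 0.16 and the beta median 0.31, so the order of the fitted alpha and beta medians turned without the pool array. Psma4 had the highest fitted value, with 0.11, 0.31 and 0.02 in clones 1, 2 and 3 and 0.53 on the pool array (0.34 ± 0.10; limma adjusted p = 0.216). A second Psma4 probe had 0.37, 0.38, 0.39 and 0.12 on these arrays and a fitted value of 0.25, so the probes differed in which array was high. Psma4 did not lead on the clones alone, at 0.15 against 0.33 for Psma6, nor by the mean of its probes, at 0.29 against 0.32 for Psma7. Psma7 had 0.12, 0.10, 0.24 and 0.50 (0.32 ± 0.09; limma adjusted p = 0.194). Psma5 had 0.15, 0.20, 0.13 and 0.41 (0.29 ± 0.09; limma adjusted p = 0.223). In all 3 genes the brightest probe read highest on the pool array.

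Other alpha genes scattered among the clones. Psma2 had -0.34 in clone 1, 0.26 in clone 2, 0.71 in clone 3 and 0.31 in the pool, one of the 3 widest ranges over the clones (0.26 ± 0.20; limma adjusted p = 0.570). Psma1, the lowest alpha gene, had 0.36, 0.29, -0.14 and 0.16 (0.17 ± 0.13; limma adjusted p = 0.557). Psma6 was high in clone 2 alone, at 0.63 against 0.17 to 0.24 on the other arrays. Psma3 was below 0 in clone 2, at -0.08, and reached 0.39 on the pool array. The germ-cell alpha gene Psma8 was not well above background in any channel.

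In the 19S base, the ATPase gene Psmc2 stood highest, with 0.05 in clone 1, 0.15 in clone 2, 0.73 in clone 3 and 0.40 on the pool array (0.36 ± 0.15; limma adjusted p = 0.350). The second Psmc2 probe repeated the order, with 0.09, 0.24, 0.73 and 0.41. The other ATPase genes were nearer 0: Psmc6 had 0.17, Psmc3 0.12, Psmc5 0.08 and Psmc1 0.01. Psmc4, the lowest base gene, had -0.02, 0.11, -0.06 and -0.12 (-0.05 ± 0.09; limma adjusted p = 0.806). Psmc1 took both signs, with 0.20, -0.22, 0.00 and 0.03, and its second probe had a fitted value of -0.08. Of the scaffold genes of the base, Psmd1 had 0.12, 0.06 and 0.07 in the clones and 0.47 in the pool, and Psmd2 a fitted value of 0.11. Psmd4, an intrinsic ubiquitin receptor, had a fitted value of 0.19.

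In the lid, 7 of 8 genes were above 0 in the fit and 5 were above 0 on all 4 arrays. Psmd7, a scaffold partner of the deubiquitinase, had 0.10, 0.02 and 0.09 in clones 1, 2 and 3 and 0.58 on the pool array (0.32 ± 0.09; limma adjusted p = 0.187). Its fitted value therefore rested largely on the pool, and on the clones alone it was 0.07. Psmd12 had 0.02, 0.23 and 0.08 in the clones and 0.46 in the pool (0.29 ± 0.09; limma adjusted p = 0.248), and its dimmer probe had 0.35, 0.12, 0.44 and 0.38. Psmd14, which encodes the deubiquitinase, had the reverse order, with 0.20, 0.27 and 0.32 in the clones and 0.13 in the pool (0.20 ± 0.09; limma adjusted p = 0.360). Psmd3 and Psmd6 were above 0 on every array, with fitted values of 0.22 and 0.18. Psmd13 was below 0 in clone 3 alone, at -0.15. Psmd8, the lowest lid gene, had -0.12, -0.03 and -0.32 in the clones and 0.03 in the pool (-0.06 ± 0.10; limma adjusted p = 0.792).

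The activators held the highest and the lowest fitted value of the 44 genes. The PA28 alpha gene Psme1 had 0.07, 0.52, -0.02 and 0.30 (0.24 ± 0.13; limma adjusted p = 0.438). The highest fitted value was listed under Psme2b, a near-identical copy of the PA28 beta gene Psme2. It had 0.33, 0.42 and 0.23 in clones 1, 2 and 3 and 0.84 on the pool array. Its R/R channels read 13.7 to 14.1 and its WT channels 13.2 to 13.6 in normalised log2 signal. The fitted value was 0.58 ± 0.09 (limma adjusted p = 0.086), with a range of adjusted p from 0.061 to 0.429 over the alternatives. That rank rested on the pool array and the brightest probe. On the clones alone Psme2b was 0.33, below Psmb5 at 0.52, Psme3 at 0.43, Psmg3 at 0.41, Psmb3 at 0.38 and Psmb2 at 0.34, and just below Psma6. By the mean of its probes it was 0.30, below Psmb3 at 0.43, Psmc2 at 0.37, Psmg3 at 0.36, Psmb5 at 0.35 and further genes. No probe here carried a Psme2 accession, so which of the copies was measured is uncertain. Of the other Psme2b probes, a bright one gave 0.46 and a dim one -0.14. Psme1 and Psme2 are known to be induced by interferon, as are the immunoproteasome genes.

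The proteasome-capping activators outside the PA28 alpha and beta pair showed opposite signs on the clones and the pool. Psme3, the nuclear PA28 gamma, had 0.31, 0.75 and 0.23 in clones 1, 2 and 3 but -0.70 on the pool array (-0.14 ± 0.13; limma adjusted p = 0.646). Its WT channel read 8.42 to 8.48 beside the clones and 9.04 beside the R/R pool. The R/R channel read 8.80, 9.17 and 8.69 in clones 1, 2 and 3 and 8.34 in the pool, so both channels moved. Psme4, the PA200 activator, had -0.14, -0.23 and -0.36 in the clones and 0.31 in the pool (0.03 ± 0.09; limma adjusted p = 0.891). Its second probe had a fitted value of -0.01.

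**Figure D3:**
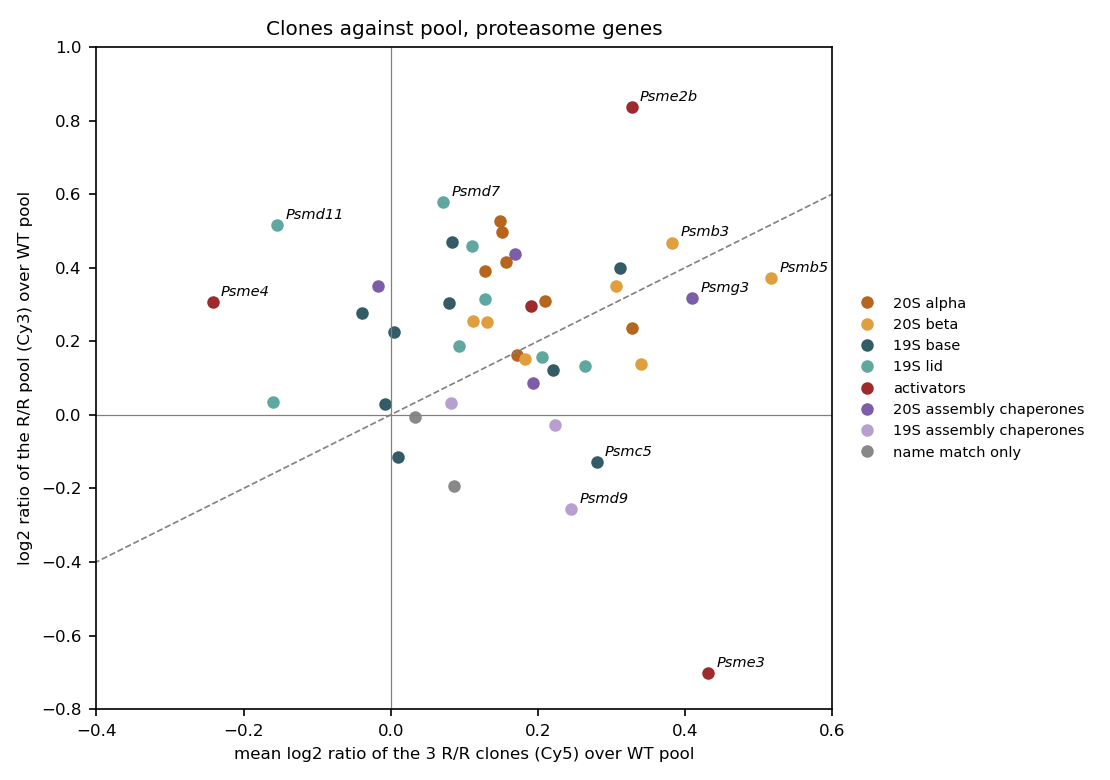
Mean log2 ratio of the 3 R/R clones (horizontal, labelled with Cy5) against the log2 ratio of the R/R pool (vertical, labelled with Cy3), for the 44 proteasome genes; the dashed line marks equal values. Psme3 lies far below the line, and Psmd11, Psme4, Psmd7 and Psme2b lie well above it.

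Clones and pool also parted in other genes. Psmd11, a lid subunit, had -0.09, -0.09 and -0.29 in clones 1, 2 and 3 and 0.52 on the pool array, and Psmc5 had 0.24, 0.41 and 0.20 in the clones and -0.13 in the pool. The pool lay above the clone mean in 26 of 44 genes, against 48.1% of all genes. Dye and type of sample changed together between these arrays, so the difference between pool and clones cannot be told apart from a dye effect. The dye term of the fit passed in 0 genes (limma, adjusted), with 537 genes and 5 proteasome genes (Psme3, Psmd11, Psme4, Psmd7 and Psme2b) at an unadjusted p under 0.05.

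The 4 chaperone genes of core assembly, Psmg1 to Psmg4, were above 0 in the fit, with a median of 0.23. Psmg3 was highest, with 0.24, 0.05 and 0.93 in clones 1, 2 and 3 and 0.32 in the pool (0.36 ± 0.18; limma adjusted p = 0.410). Its partner Psmg4 had -0.27, 0.23, 0.55 and 0.44. Psmg2, the lowest, had 0.31, 0.10, 0.17 and 0.09 (0.14 ± 0.09; limma adjusted p = 0.506), and its partner Psmg1 had 0.06, -0.21, 0.11 and 0.35. The 3 chaperone genes of the 19S base had a median of 0.06. On the clones alone their median was 0.22 and that of Psmg1 to Psmg4 0.18, so the order of these groups turned without the pool array. Psmd9 had 0.00, -0.10 and 0.83 in the clones and -0.26 in the pool (-0.01 ± 0.20; limma adjusted p = 0.991), and its second probe had -0.24, -0.15, 0.41 and -0.11. Psmd10 encodes gankyrin, which is also known to bind CDK4. It had 0.02, 0.16, 0.49 and -0.03 (0.10 ± 0.12; limma adjusted p = 0.727), with 0.15, 0.02, 0.89 and 0.21 by a dimmer probe. Psmd5 had a fitted value of 0.06. Of the name matches, Psmc3ip had 0.01 and Psme3ip1 -0.05.

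Several of the genes highest in clone 3 shared chromosomes. Psmc2, Psmg3 and Psmd9, at 0.73, 0.93 and 0.83 in clone 3, are the 3 tested proteasome genes on chromosome 5. The median of all 775 tested genes on that chromosome was 0.31 in clone 3, with 77.4% of them above 0, against 0.00 in clones 1 and 2 and 0.05 in the pool. Less the chromosome's median, Psmc2, Psmg3 and Psmd9 stood at 0.43, 0.63 and 0.53 in clone 3. Psma2 and Psmg4, at 0.71 and 0.55 in clone 3, lie on chromosome 13, whose 467 genes had medians of 0.11, 0.15 and 0.21 in clones 1, 2 and 3 and 0.18 in the pool. Less that median they stood at 0.50 and 0.34 in clone 3. The fitted value of Psma2 was 0.26, but 0.09 with chromosome medians subtracted and 0.13 without clone 3. At 0.09 it lay below Psma1, which stood at 0.19 with those medians subtracted. The fitted value of Psmc2 was 0.36, but 0.28 with those medians subtracted, below Psmd1. Psmd10 lies on the X chromosome, with a median of 0.12 in clone 3. On chromosome 18, the place of Psmg2, the medians were below 0 on all 4 arrays, from -0.17 to -0.10. The fitted value of Psmg2 was 0.14, but 0.26 with chromosome medians subtracted, above Psmg1 and Psmg4. Chromosomes are those of RefSeq's GRCm38.p6 annotation. With each chromosome's median subtracted on each array, an alternative added after the data were seen, 39 of 44 proteasome genes were above 0 and their median was 0.19.

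**Figure D4:**
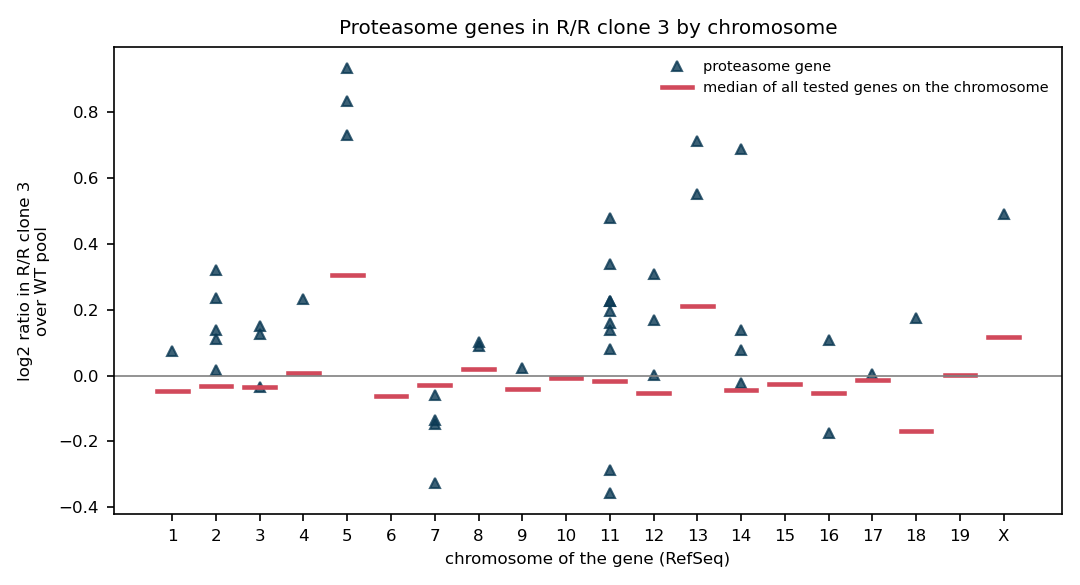
Log2 ratio of R/R clone 3 over the WT pool for each of the 44 proteasome genes (triangles) by chromosome, with the median of all tested genes on that chromosome as a bar. The chromosome 5 genes lie between 0.73 and 0.93, above a chromosome median of 0.31, the highest of those shown.

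Where a gene had several probes, their fitted values mostly had the same sign but could differ in size. Among 11 genes with more than 1 passing probe, the fitted values had 1 sign in 8, and their median range was 0.08. The exceptions in sign were Psmc1, Psme4 and Psme2b, and Psme2b had the widest range, 0.73. The ranges of Psmb5 and Psmd10 were 0.19 and 0.18. In most of these genes the brightest probe, the one fitted, gave a higher value than the second. For the other 33 genes 1 probe stood for the gene.

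Further genes of the ubiquitin-proteasome system were read from a list of regulators, shuttles and ubiquitin genes. Of 30 tested, 0 passed over all genes (limma, adjusted), 21 were above 0 (46.4% of all genes) and their median was 0.10. At an unadjusted p under 0.05, 2 of 30 were higher and 1 lower (7.26% and 8.09% of all genes). Ubqln2, a shuttle that carries ubiquitinated proteins to the proteasome, stood at 1.13, 0.94 and 1.58 in the clones and 1.08 in the pool (1.15 ± 0.14; limma adjusted p = 0.052). It lay above the WT pool on every array by more than the spread of the clones, and it passed in 8 of 15 alternatives, with adjusted p from 0.003 to 0.134. The Ubqln2 probe was dim, with WT channels at 6.98 to 7.28, and the size of its value depended on the processing. That value ranged from 1.06 to 1.83 over the alternatives, with 1.41 at offset 16 and 1.83 with the scanner ratios. The related genes Ubqln1 and Ubqln4 had 0.18 and 0.18. Zfand5, a ubiquitin-binding protein that stimulates the proteasome, had 0.51, 0.58, 0.42 and 0.39 (0.44 ± 0.09; limma adjusted p = 0.130). Akirin2, which brings proteasomes into the nucleus, was the lowest, with -0.53, -0.50, -0.40 and -0.34 (-0.41 ± 0.09; limma adjusted p = 0.143).

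The segregase gene Vcp had a fitted value of 0.27 and its cofactor gene Nploc4 0.23, while the other cofactor gene Ufd1 had 0.03. Among genes of subunits that lack a Psm symbol, the lid gene Sem1 had 0.23 and the ubiquitin receptor gene Adrm1 0.15. Pomp, which encodes a core maturation factor, had 0.04, -0.09, 0.60 and 0.32, highest in clone 3. Nfe2l1 had -0.04 ± 0.10 (limma adjusted p = 0.858), and Ddi2, the protease that activates its product, had 0.20 ± 0.09 (limma adjusted p = 0.380).

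The products of the immunoproteasome genes replace the proteolytic beta subunits, and their fitted values were 0.60, 0.53 and 0.40. Psmb8, which replaces Psmb5, had 0.63, 0.68 and 0.35 in the clones and 0.65 in the pool (0.60 ± 0.10; limma adjusted p = 0.0999), Psmb9 had 0.75, 0.63, -0.01 and 0.60, and Psmb10 had 0.22, 0.51, 0.19 and 0.48. Clone 3 was the lowest of the 4 arrays for all 3 genes, whereas it was the highest for the brightest Psmb5 probe. By the second Psmb5 probe the pool array was highest, at 0.37 against 0.22 in clone 3.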

How the data were processed

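RNA of 3 R/R clones and 1 R/R pool was compared with 1 WT pool on 4 two-colour arrays. The deposited intensity values are, per the file headers, raw medians over each spot's pixels and over its surroundings (Feature Extraction 11.5.1.1). Dye-normalised log10 ratios, Cy5 over Cy3, were deposited by the authors in the same files and served as an alternative. The deposited table of log ratios was not used here, because its row numbers match no probe.

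With limma 3.58.1 in R 4.3.3, background was corrected by normexp (offset 50), and loess then normalised each array, giving control spots weight 0. Replicate spots were averaged per probe after dropping 210 to 265 outlier spots per array. Accessions gave 27656 of 55681 probes a RefSeq symbol. A probe passed (26450 did) if either genotype's channel exceeded background clearly on 3 or more arrays. Each gene's brightest passing probe was fitted with a genotype and a dye term (2 residual degrees of freedom), two-sided, with Benjamini-Hochberg adjustment over 20051 genes. No member had a missing array. No source says whether the clones came from separate animals, and the identifiers of clones 1 and 2 share a number, so p-values measure only the spread between these samples. The fit was tested on simulated data.

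Members and lists were chosen with earlier results of these data known. Named genes were the highest and lowest of each group, the 8 smallest p, the 3 widest clone ranges, genes whose probes differ in sign, the 6 smallest p of the further list, the immunoproteasome genes and the dim members; others were named after their values were seen. Lists are described by counts and medians, with no test. Alternatives were the scanner ratios, offset 16, median centring, scaling, no filter, a strict filter, the mean of probes, clones alone, no dye term, clones 1 and 2 averaged, each clone left out, an intensity trend, a threshold of 0.10 and, added later, chromosome centring. Some genes of the lists are not reported here by name.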

Additional observations from a re-analysis of the deposited data

Results flagged for a closer look

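In 7 of the 44 genes every R/R clone lay on one side of 0 and the R/R pool on the other. The same count was not made over all genes, so whether 7 is unusual is not known. The pool minus the mean of the clones, on the log2 scale, was -1.13 for Psme3, -0.41 for Psmc5, -0.25 for Psmd10 and -0.28 for Psme3ip1, whose clones were above 0. It was 0.67 for Psmd11, 0.55 for Psme4 and 0.19 for Psmd8, whose clones were below 0. In limma's dye term each of these had an adjusted p of 0.9999. The pool carried the other dye and its make-up is not stated, so dye and sample cannot be told apart.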

How the results depend on the processing

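Over 15 alternatives, 37 to 41 of the proteasome genes tested were above 0, and their median lay between 0.1543 (clones alone) and 0.2069. None was called in any alternative except 3 with no dye term and 1 at a threshold of 0.10. Counts over all genes moved from 105 (30 higher, 75 lower) to 50 with the scanner ratios (6 higher, 44 lower), 30 with median centring (2 higher, 28 lower), 1140 with no dye term (490 higher, 650 lower) and 310 at 0.10. They were 61 without clone 1 and 264 without clone 3. The 20S alpha median moved to 0.1567 on the clones alone. The 20S beta median moved to 0.2764 with the scanner ratios, 0.2154 with no filter, 0.3068 on the clones alone and 0.2895 with no dye term, and lay between 0.2115 and 0.2659 with a clone left out. The lid median moved to 0.2151 with the scanner ratios, 0.2116 with median centring, 0.1015 on the clones alone and 0.2012 with chromosome centring, which was chosen after seeing the data, and lay between 0.1809 and 0.2069 with a clone left out. Among the named genes, the sign turned in 5. Psmd9 was 0.0205 with the scanner ratios, 0.2449 on the clones alone, 0.1197 with no dye term, 0.0678 with clones 1 and 2 averaged and -0.1522 to 0.0809 with a clone left out. Psmc1 was -0.0063 with the scanner ratios, -0.0359 with the mean of probes, -0.0081 on the clones alone and -0.0396 to 0.0640 with a clone left out. Psme4 was -0.0210 with median centring, -0.2421 on the clones alone and -0.1052 with no dye term. Psme3 was 0.4314 on the clones alone and 0.1480 with no dye term, and Psmc4 0.0097 on the clones alone. The cause was not tested. Each array set R/R against the WT pool directly, so every ratio is within an array. The R/R clones could not be paired with the R/R pool, because these groups share at most 1 replicate number. The single WT pool, 1 array per clone and a dye tied to the pool limit all values.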
